A study of Mus musculus with 12 samples.

Results

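Cathepsins are proteases of the lysosome and endosome, and 9 of the 56748 genes counted in murine G1E-ER4 erythroblasts are described here. They are Ctsz, Ctsl, Ctsb, Ctsc, Ctsh and Ctss, which encode cysteine proteases, Ctsd and Ctse, which encode aspartic proteases, and Ctsa, which encodes a serine carboxypeptidase. They were chosen by gene symbol, with their levels in these libraries known: Ctsz was singled out because it had no read in any Sf3b1 +/+ library. The comparison of Sf3b1 K700E/+ with Sf3b1 +/+ cells at 24 h of estradiol is thus the one that led to the choice, and its values for these 9 genes are given as a description, without p-values. For all other genes p-values are given, from the quasi-likelihood F test of edgeR with Benjamini-Hochberg adjustment over the 12547 genes with enough reads.

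The G1E-ER4 line consists of murine proerythroblasts with a fusion of GATA1 and the estrogen receptor, and estradiol switches on their erythroid maturation. Both genotypes derive from this line. They went through CRISPR-Cas9 editing with a hygromycin cassette, single-cell sorting, removal of the cassette by flippase and a further single-cell sort, and 1 genotype carries the K700E change of the splicing factor Sf3b1 on 1 allele. Poly(A) RNA was sequenced from 3 libraries of Sf3b1 K700E/+ and 3 libraries of Sf3b1 +/+ cells, all treated with β-estradiol for 24 h, and cells taken before estradiol were not analysed here. Each genotype is 1 clone, so that genotype and clone cannot be told apart, and no source used here ties a library to a culture, so the spread between libraries may be technical. Total counts were 44045337 to 50077827 in Sf3b1 K700E/+ and 38785471 to 40702174 in Sf3b1 +/+ libraries. Levels are given as CPM, the counts of a gene scaled to the size of its library with TMM factors, with the SD over 3 libraries.

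Cathepsins are made as inactive proenzymes, carried to the lysosome on mannose 6-phosphate and other sorting receptors, and activated at low pH. Most cleave proteins that reach the lysosome by endocytosis or autophagy, and cystatins and some serpins block those that escape. Many lysosomal genes hold the letters CACGTG, bound by TFEB and its relatives, near their start. Erythroblasts lose their organelles as they mature, lysosomes included.

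RefSeq (GRCm38.p6) promoter sequences were at hand for 6 of the 9 genes, Ctsz, Ctsa, Ctsc, Ctsd, Ctsl and Ctss, with 2 start sites for Ctsa. Ctsb, Ctse and Ctsh are named only. The 250 bases before each start site were searched on both strands for CACGTG and for AGATAA, 1 form of the letters bound by GATA factors. Other forms, such as TGATAA, were not searched, so the matches do not count all GATA sites. These motifs do not overlap each other. CACGTG is its own reverse complement and was in 6.02% of 32851 promoters of this length, and AGATAA was in 9.99%. The Ctsz promoter is printed whole, because Ctsz is the gene that was without reads in 1 genotype, at chr2:174439040-174439289 on the minus strand. Capitals mark its 1 match to AGATAA, which reads TTATCT on this strand and starts 56 bases before the start site. The stretch also reads ttatca, which is TGATAA on the other strand and is not marked. The stretch holds 7 CG dinucleotides, against a median of 6 over all promoters, and no CACGTG.
Ctsz promoter: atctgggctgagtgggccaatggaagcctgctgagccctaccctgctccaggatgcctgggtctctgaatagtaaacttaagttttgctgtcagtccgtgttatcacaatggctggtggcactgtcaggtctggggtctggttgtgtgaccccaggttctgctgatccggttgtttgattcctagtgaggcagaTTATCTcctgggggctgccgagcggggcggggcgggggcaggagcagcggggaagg

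CACGTG was found in 3 of the other promoters, and the stretch around each match is shown to set these genes beside Ctsz. The coordinates given here are those of the printed stretches. Ctsl has 1 match, 236 bases before its start, in the stretch chr13:64370739-64370768 (minus strand). Ctsd has a match in chr7:142388055-142388077 and another in chr7:142387908-142387937 (minus strand), 245 and 98 bases before its start, in a promoter with 27 CG dinucleotides. Ctsa has a match in chr2:164833749-164833772 (plus strand), 12 bases before the second start site. The first start site of Ctsa, and Ctsc and Ctss, had neither CACGTG nor AGATAA. Capitals mark CACGTG.
Ctsl: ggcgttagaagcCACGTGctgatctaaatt
Ctsd, far match: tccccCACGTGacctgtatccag
Ctsd, near match: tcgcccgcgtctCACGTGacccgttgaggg
Ctsa, second start site: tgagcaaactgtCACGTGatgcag

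Some marker genes of other cell types differed between the genotypes and stand beside every result below. Among all tested genes, 21.3% were higher and 23.1% lower at an adjusted p under 0.05 from edgeR. Of 13 erythroid markers measured, none was at 0, and the summed level was 8994 to 14845 CPM in Sf3b1 K700E/+ and 10902 to 15323 CPM in Sf3b1 +/+ libraries. The adult beta-globin gene Hbb-bs (4412 against 6582 CPM), the transferrin receptor gene Tfrc (2273 against 2062 CPM), the anion exchanger gene Slc4a1 (2120 against 1759 CPM) and the alpha-globin gene Hba-a1 (1546 against 1716 CPM) were the highest. Of the erythroid markers, 2 rose and 2 fell at an adjusted p under 0.05 from edgeR (median log2 fold change 0.05), among them Gata1 at 1.00, whose reads can come from the fusion gene. With the replicate number as a block 4 rose and 3 fell. Hbb-bs was among those that fell (adjusted p = 6.67e-05 from edgeR). Alas2 (adjusted p = 3.57e-05 from edgeR) and Slc4a1 (adjusted p = 0.00422 from edgeR) were among those that rose. The block raised the calls over all tested genes from 5569 to 7134, so counts under it are not set beside the shares above. Hbb-bs also fell without Sf3b1 K700E/+ replicate 3, without Sf3b1 +/+ replicate 1 and with no filter on low counts. Alas2 also rose without Sf3b1 K700E/+ replicate 1 and with no filter on low counts. Slc4a1 also rose without Sf3b1 K700E/+ replicate 1. Without Sf3b1 K700E/+ replicate 1, 4 markers rose, while without Sf3b1 K700E/+ replicate 2 or 3 only 1 did. Of 22 granulocyte and macrophage markers, 7 could be tested and fell (median log2 fold change -6.41). Lyz2, Cybb, Mmp8, Adgre1 and Fcgr3 passed the filter on low counts only through the Sf3b1 +/+ libraries. Their direction was thus fixed by the filter, and nothing is read from this count or median. With the study's filter on low counts, 2 markers of this list were lower. The summed level was 61.3 to 76.9 CPM in Sf3b1 K700E/+ against 101 to 180 CPM in Sf3b1 +/+ libraries. Spi1, the transcription factor PU.1, made up most of this sum in every library, at 69.6 ± 8.79 against 119 ± 28.2 CPM (SD, n = 3). The sum thus follows 1 gene and does not measure how many such cells were present. Next were Cybb (0.0152 against 8.79 CPM), Lyz2 (0.00742 against 8.49 CPM) and Mmp8 (0.0304 against 5.87 CPM). Elane, Ctsg, Ly6c2, S100a8, Ngp, Camp and Mrc1 were listed at 0 in all libraries. The summed level of 11 mast cell, basophil and eosinophil markers was 26.1 to 53.7 against 72.6 to 88.6 CPM, with 3 of 5 tested genes lower (5 with the replicate block). Most of this sum was Gata2, at 37.5 against 56.7 CPM, which did not pass (adjusted p = 0.0651 from edgeR) but did with the replicate block (0.00146). This sum, too, does not measure how many such cells were present. Prg2 was at 0.863 against 21.7, Ms4a2 at 1.13 against 3.01 and Epx at 0 against 1.15 CPM. Epx passed the filter on low counts only through the Sf3b1 +/+ libraries. Mcpt8 and Tpsb2 were listed at 0. Of 4 tested megakaryocyte markers 0 passed with edgeR and 0 with DESeq2, while 1 was lower at an unadjusted p under 0.05, and Gp9 was lower with the replicate block (adjusted p = 2.85e-05 from edgeR) and without Sf3b1 +/+ replicate 1. Their summed level was 10.1 to 19.3 against 17.4 to 28.6 CPM, and Gp1bb and Vwf were among those listed at 0. Of 8 lymphoid markers, Ighm alone was tested and fell (log2 fold change -3.51). It too passed the filter on low counts only through the Sf3b1 +/+ libraries. The summed level of the lymphoid markers was 0.0234 to 0.0445 against 0.403 to 0.811 CPM, and Cd3e, Ms4a1, Nkg7 and Trac were among those listed at 0. In bulk RNA, fewer cells of a type and less RNA per cell cannot be told apart. Whether cells of these other types were present was not tested, nor was any part of theirs in the cathepsin levels.

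Of the 9 cathepsin genes, 7 had enough reads for the fit across all genes. The thresholds of the study for a differentially expressed gene (absolute log2 fold change over 1, adjusted p under 0.05) were met by 3 of the 7, where 10.3% of all tested genes met them. An adjusted p under 0.05 was reached by 2 on the higher side (21.3% of all genes) and by 3 on the lower side (23.1%). In 5 of the 7, the CPM of the genotypes did not overlap, which was so in 54.3% of all tested genes. Ctsz passed the filter on low counts only through the Sf3b1 K700E/+ libraries, so its direction was fixed by the filter. With the study's filter on low counts, under which Ctsz cannot be tested, 2 cathepsin genes met the thresholds. All these counts come from the contrast behind the choice of genes, and nothing is read from them. The median log2 fold change over all tested genes was -0.01.

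Ctsz (ENSMUSG00000016256) encodes cathepsin Z, a cysteine carboxypeptidase that trims single residues from the C-terminus of proteins. It had 1090, 884 and 902 reads in the Sf3b1 K700E/+ libraries, replicates 1 to 3, and 0 reads in each Sf3b1 +/+ library. The CPM were 21.7, 19.7 and 21.1, a mean of 20.8 ± 1.05 (SD, n = 3). The genotypes thus did not overlap, and the Sf3b1 K700E/+ libraries lay close together. Against a floor of 3 counts over the Sf3b1 +/+ group, 2876 reads against none amount to a level at least 844-fold higher, a log2 bound of 9.72. This floor covers counting error only, and without Sf3b1 +/+ replicate 1, 2 or 3 the bound was 9.15, 9.14 or 9.13.

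**Figure D1:**
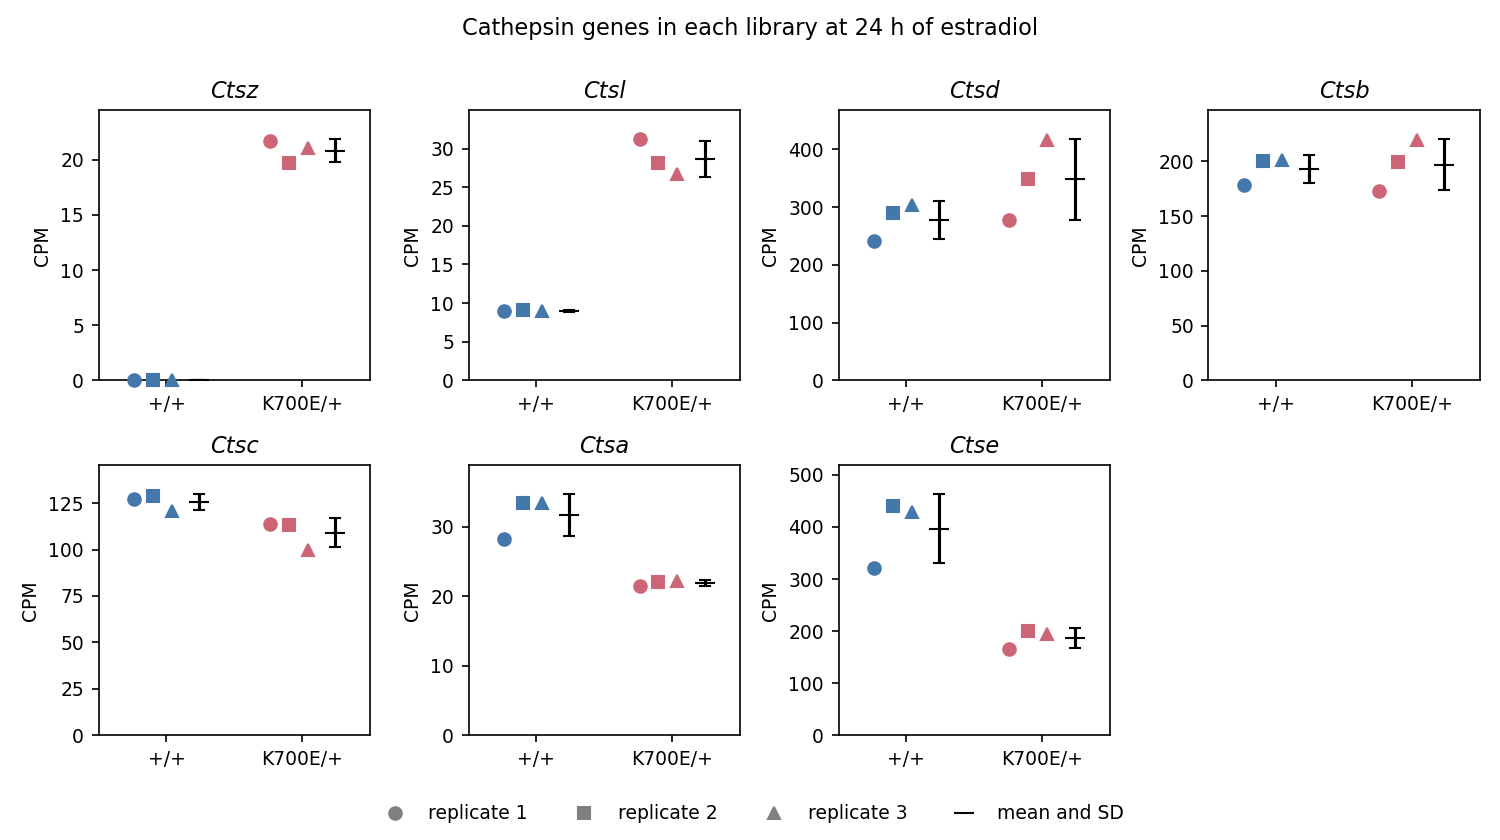
CPM of the 7 cathepsin genes with enough reads, 1 panel per gene, in 3 Sf3b1 +/+ (blue) and 3 Sf3b1 K700E/+ libraries (red) at 24 h of estradiol, with black bars for the mean and SD. Ctsz is at 0 in every Sf3b1 +/+ library and near 20.8 CPM in the others, Ctsl is higher and Ctse, Ctsa and Ctsc are lower in each Sf3b1 K700E/+ library, and Ctsd and Ctsb overlap.

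Ctsl (ENSMUSG00000021477) encodes cathepsin L, an endopeptidase with broad specificity. It had 1566, 1263 and 1141 reads in Sf3b1 K700E/+ and 355, 374 and 364 reads in Sf3b1 +/+ libraries. In CPM this was 31.2, 28.1 and 26.7 against 8.94, 9.12 and 8.95. Every Sf3b1 K700E/+ library was above every Sf3b1 +/+ library, and the latter differed from each other by far less than the genotypes did. The level was 3.18-fold higher in Sf3b1 K700E/+ cells (log2 fold change 1.67, standard error 0.09). The log2 ratios within replicates 1, 2 and 3 were 1.80, 1.62 and 1.57. Leaving out any 1 library, the log2 fold change stayed between 1.61 and 1.73. Ctsl and Ctsz were thus the 2 cathepsin genes with higher levels and no overlap, and of their promoters only that of Ctsl held CACGTG.

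Ctsb (ENSMUSG00000021939) encodes cathepsin B, which acts both as an endopeptidase and as a peptidase that removes dipeptides from the C-terminus. It was measured at 173, 199 and 219 CPM in Sf3b1 K700E/+ and at 178, 200 and 201 CPM in Sf3b1 +/+ libraries. The genotypes overlapped, and replicate 1 was the lowest library in both. The log2 fold change was 0.03 (standard error 0.09), and its sign turned when Sf3b1 K700E/+ replicate 3 (-0.05) or Sf3b1 +/+ replicate 1 (-0.02) was left out, so that no direction can be given.

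Ctsc (ENSMUSG00000030560) encodes cathepsin C, a dipeptidyl peptidase that activates the serine proteases of granulocytes and mast cells. It was at 114, 113 and 100 CPM in Sf3b1 K700E/+ and at 127, 129 and 121 CPM in Sf3b1 +/+ libraries. All Sf3b1 K700E/+ libraries were lower, by a small margin. The log2 fold change was -0.20 (standard error 0.07), or 1.15-fold, and ranged from -0.23 to -0.14 without any 1 library. Ctsg and Elane, granule proteases that Ctsc activates, were listed at 0 in all 6 libraries.

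Ctsh (ENSMUSG00000032359) and Ctss (ENSMUSG00000038642) encode an aminopeptidase and an endopeptidase that is abundant in antigen-presenting cells, where it cuts the invariant chain. Ctsh was listed at 0 reads in every library. Ctss had 1 read in Sf3b1 +/+ replicate 2 and 1 read in replicate 3, and none in the other libraries, so that neither gene was tested. A listing at 0 does not by itself show that a gene is silent: 9 genes at 0 in every library held a splicing event with more than 100 reads in the event table, and Hexa, a hydrolase that most cells express, was also listed at 0. For Ctsz the same count table held 884 to 1090 reads in the other genotype.

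Ctsd and Ctse encode aspartic proteases. Ctsd (ENSMUSG00000007891) encodes cathepsin D, the main aspartic endopeptidase of lysosomes. It was at 278, 349 and 417 CPM in Sf3b1 K700E/+ and at 241, 290 and 304 CPM in Sf3b1 +/+ libraries. The genotypes overlapped, since Sf3b1 K700E/+ replicate 1 was below Sf3b1 +/+ replicates 2 and 3. Within each replicate number the Sf3b1 K700E/+ library was the higher, with log2 ratios of 0.20, 0.27 and 0.46, and the log2 fold change was 0.32 (standard error 0.14). Without Sf3b1 K700E/+ replicate 3 it was 0.18, and the highest value without any 1 library was 0.47.

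Ctse (ENSMUSG00000004552) encodes cathepsin E, an aspartic protease of endosomes that is also known from the membrane of red cells. It had 8276, 9035 and 8281 reads in Sf3b1 K700E/+ and 12729, 18104 and 17455 reads in Sf3b1 +/+ libraries. In CPM this was 165, 201 and 194 against 321, 441 and 429, with no overlap and with replicate 1 lowest in both genotypes. The means were 187 ± 19 and 397 ± 66.5 CPM (SD, n = 3), 2.13-fold lower in Sf3b1 K700E/+ cells (log2 fold change -1.09, standard error 0.12). Without Sf3b1 +/+ replicate 2 the log2 fold change was -0.99, which is inside the threshold of 1, so that 2 cathepsin genes instead of 3 met the study's thresholds. In absolute CPM the difference in Ctse, a mean of 397 against 187, was larger than the whole level of Ctsz or Ctsl.

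Ctsa (ENSMUSG00000017760) encodes cathepsin A, a serine carboxypeptidase that also protects the lysosomal hydrolases beta-galactosidase (Glb1) and neuraminidase 1 (Neu1). It was at 21.5, 22.1 and 22.2 CPM in Sf3b1 K700E/+ and at 28.2, 33.4 and 33.5 CPM in Sf3b1 +/+ libraries. The genotypes did not overlap, and the level was 1.45-fold lower in Sf3b1 K700E/+ cells (log2 fold change -0.53, standard error 0.09). Of the partners, Glb1 rose by 0.31 on the log2 scale (standard error 0.10, adjusted p = 0.0282 from edgeR). Neu1 was at 23.7 ± 1.82 against 21.3 ± 1.47 CPM (SD, n = 3). Its genotypes overlapped and it did not pass (adjusted p = 0.197 from edgeR), so that no direction can be given.

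To compare the genes with each other, CPM were divided by transcript length, taking for each gene the best supported coding transcript of GENCODE M21. In Sf3b1 +/+ cells Ctse led with 187 CPM per kb, followed by Ctsd (131), Ctsc (50.4), Ctsb (40.7), Ctsa (12.5) and Ctsl (4.57), and no neighbours in this order overlapped. In Sf3b1 K700E/+ cells Ctsd led with 164 CPM per kb, followed by Ctse (87.7), Ctsc (43.8), Ctsb (41.5), Ctsl (14.5), Ctsz (14.5) and Ctsa (8.65). There the libraries of Ctsc overlapped those of Ctsb, and those of Ctsl overlapped those of Ctsz. The leading aspartic protease thus differed between the genotypes, and Ctsz, at 0 in Sf3b1 +/+ cells, stood at a level per length like that of Ctsl in Sf3b1 K700E/+ cells.

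The summed level per length of the 9 genes was 330, 383 and 410 CPM per kb in Sf3b1 K700E/+ and 368, 456 and 454 CPM per kb in Sf3b1 +/+ libraries, which overlapped. Its make-up differed. Ctsd made up 39.6%, 42.9% and 47.8% of the sum in Sf3b1 K700E/+ against 30.8%, 29.9% and 31.5% in Sf3b1 +/+ libraries, and Ctse 23.5%, 24.7% and 22.2% against 41%, 45.6% and 44.5%. Ctsz contributed 4.57%, 3.57% and 3.56% in Sf3b1 K700E/+ libraries, Ctsl 3.94% ± 0.774 against 1.08% ± 0.13 (SD, n = 3), and Ctsa 2.33% ± 0.223 against 2.94% ± 0.0719 (SD, n = 3). Shares sum to a whole, so a lower share of 1 gene raises the others. With the length of all exons of a gene in place of 1 transcript, an alternative added after the values were seen, Ctsb (31.9 CPM per kb) was above Ctsc (21.6) and Ctse (125) overlapped Ctsd (118) in Sf3b1 +/+ cells. In Sf3b1 K700E/+ cells Ctsl was then at 4.42 CPM per kb, below Ctsz at 14.5. The shares of Ctsd (52.2% against 38.8%) and Ctse (21% against 40.9%) differed in the same direction.

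**Figure D2:**
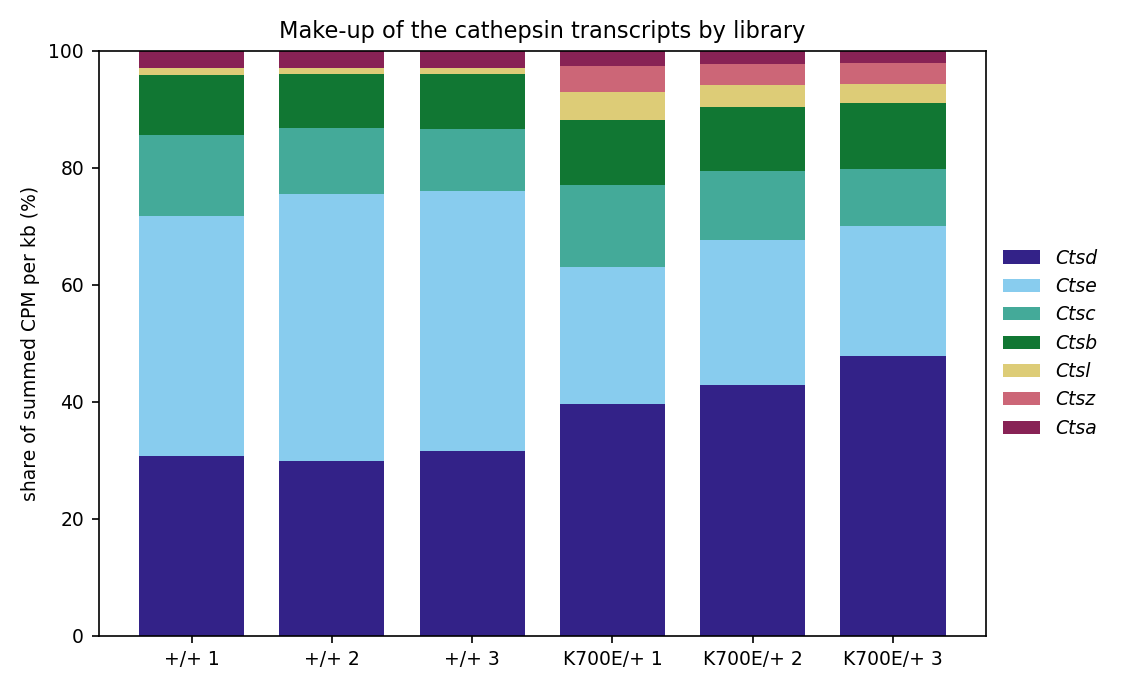
Share of each cathepsin gene in the summed CPM per kb of the 9 genes (y axis, %), 1 bar per library. Ctse takes 41% to 45.6% of each Sf3b1 +/+ bar and 22.2% to 24.7% of each Sf3b1 K700E/+ bar, while Ctsd has the largest share of the latter (39.6% to 47.8%) and Ctsz appears only there.

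The genes around Ctsz were followed to see whether the lack of reads reached them. In the RefSeq table of GRCm38.p6 the order is Gnas, the noncoding Gm30189, Nelfcd, Ctsz, the pseudogene Rpl30-ps5, Tubb1 and Atp5e, and Gm30189 was not matched in the count table. The annotated ends of Nelfcd, a subunit of the negative elongation factor, overlap those of Ctsz. Nelfcd was at 121, 124 and 128 CPM in Sf3b1 K700E/+ and at 122, 122 and 125 CPM in Sf3b1 +/+ libraries, and did not pass (log2 fold change 0.02, standard error 0.05, adjusted p = 0.84 from edgeR). Its reads in Sf3b1 +/+ cells (4831, 5020 and 5064) were thus counted beside 0 reads of Ctsz. Gnas, which encodes the alpha subunit of the stimulatory G protein, was at 994, 1051 and 1050 against 1060, 1196 and 1178 CPM. It did not pass (log2 fold change -0.15, adjusted p = 0.0991 from edgeR), but did with the replicate number as a block (adjusted p = 0.0256 from edgeR) and without Sf3b1 +/+ replicate 1 (adjusted p = 0.0215 from edgeR).

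On the other side, Rpl30-ps5 was listed at 0 in every library. Tubb1, the beta-tubulin of platelets, was at 2.61, 3.14 and 3.86 against 4.36, 5.66 and 4.57 CPM and fell (log2 fold change -0.61, standard error 0.18, adjusted p = 0.0216 from edgeR). It no longer passed without Sf3b1 K700E/+ replicate 1 (adjusted p = 0.0682 from edgeR) or 2 (0.069), or without Sf3b1 +/+ replicate 2 (0.0944). Atp5e, the epsilon subunit of mitochondrial ATP synthase, fell from 70.7 ± 2.82 to 48.1 ± 2.54 CPM (SD, n = 3; log2 fold change -0.55, standard error 0.07, adjusted p = 0.000166 from edgeR). Each measured neighbour other than Rpl30-ps5 had reads in all Sf3b1 +/+ libraries, and none was higher in Sf3b1 K700E/+ cells by the test.

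**Figure D3:**
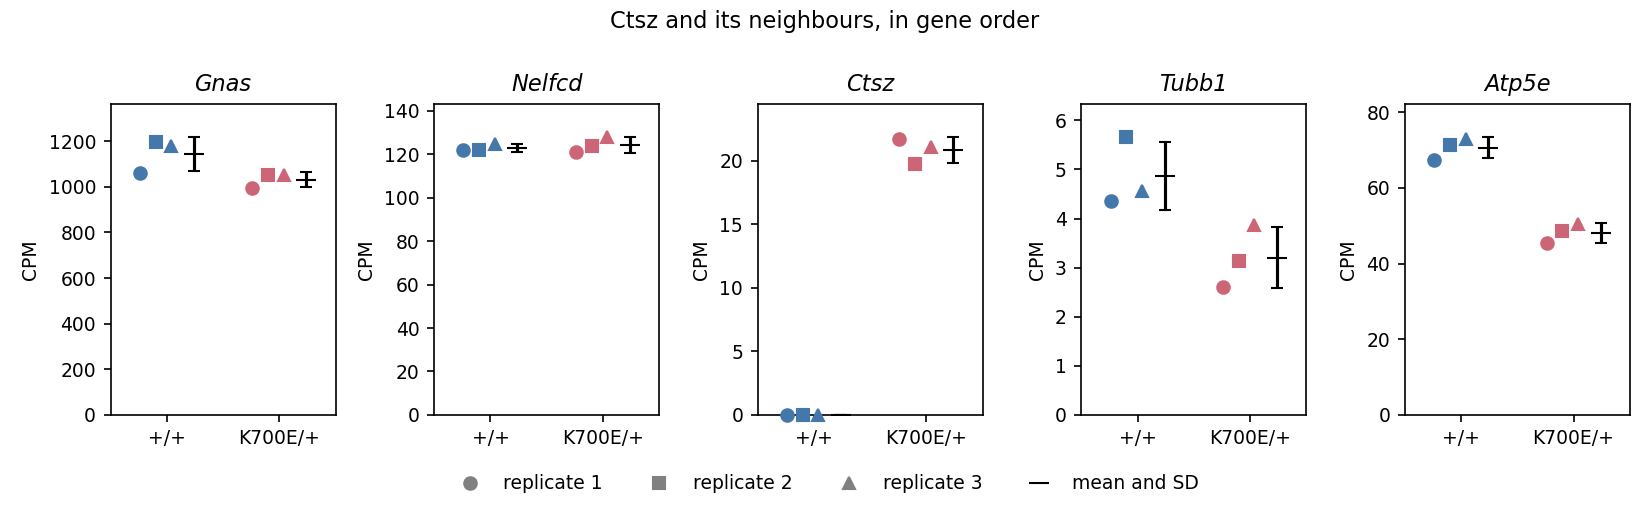
CPM of Ctsz and of the measured neighbours with reads, in gene order, in 3 Sf3b1 +/+ (blue) and 3 Sf3b1 K700E/+ libraries (red), with black bars for the mean and SD. Ctsz is the only gene of the row with a genotype at 0, Nelfcd beside it is at 121 to 128 CPM in all libraries, and Atp5e is lower in every Sf3b1 K700E/+ library.

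The 5 genes most like Ctsz were those with the smallest root-mean-square difference from it in log2(CPM + 0.1) over the 6 libraries. Tarbp1, an RNA methyltransferase, differed by 0.12 and had 22.2, 18.1 and 17.5 CPM in Sf3b1 K700E/+ libraries and no read in the others. Smarca2, which encodes the motor subunit of SWI/SNF chromatin remodellers, differed by 0.15, with 18.3, 19.4 and 17.5 CPM and no read in Sf3b1 +/+ libraries. The kinase gene Camk1d differed by 0.28 and had 1 read over the Sf3b1 +/+ libraries. Dock2, a Rac activator of blood cells, differed by 0.48 with 1 read, and Gm9732 by 0.51 with 2 reads there. Of all genes counted, 40 had no read in Sf3b1 +/+ and at least 20 reads in each Sf3b1 K700E/+ library, Ctsz among them. The reverse pattern was found in 7 genes. Reads were not scaled to library size for these counts, and every Sf3b1 K700E/+ library was larger than every Sf3b1 +/+ library.

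Splicing was read from the event table, where an intron counts as retained by the longer of 2 paths. The percent spliced in (PSI) given here is the share of that longer path, as a fraction, after division of reads by path length. Of 19323 events, 2 were in cathepsin genes, both introns of Ctsa with annotated GT and AG splice sites, and the other 8 genes had no event. The intron of 89 nucleotides (event at chr2:164676628-164676797 of GRCm39) had a PSI of 0.212, 0.158 and 0.109 in Sf3b1 K700E/+ and 0.263, 0.192 and 0.21 in Sf3b1 +/+ libraries. These overlap, though within each replicate number the Sf3b1 K700E/+ library was the lower. The mean difference was -0.0623, which rests on 48 and 80 retained reads and on 120 and 136 spliced reads. The intron of 111 nucleotides (chr2:164676090-164676279) had a PSI of 0.244, 0.157 and 0.225 against 0.178, 0.123 and 0.239, a difference of 0.0288 with overlap and with the Sf3b1 K700E/+ library higher in replicates 1 and 2 and lower in replicate 3, from 83 and 100 retained and 132 and 194 spliced reads. Among all 18114 events whose paths held 10 or more reads in each library, the genotypes did not overlap in 25.8%. At 53 and 71 reads in the thinnest library, small differences were not detectable, and Ctsz could not be examined for splicing.

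**Figure D4:**
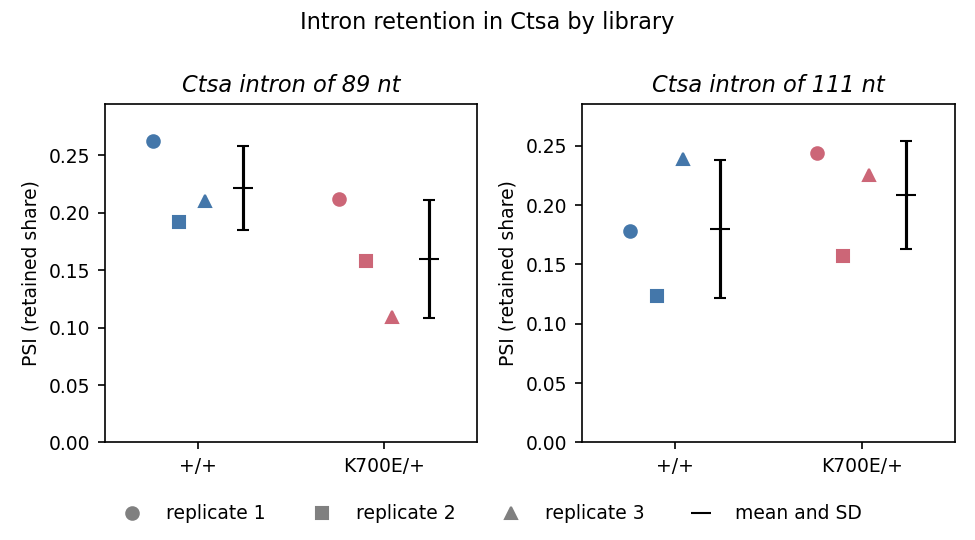
PSI (fraction of the retained path) of the 2 Ctsa introns in the event table, in 3 Sf3b1 +/+ (blue) and 3 Sf3b1 K700E/+ libraries (red), with black bars for the mean and SD. In both introns the libraries of the genotypes overlap.

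The other genes of the cathepsin pathway were taken from lists written from textbook knowledge and tested. At the same adjusted p, 21.3% of all tested genes were higher and 23.1% lower, and the counts of each list stand beside these shares. Whether a list departs from them was not tested. Of 19 other cysteine and lysosomal proteases, 8 could be tested, of which 2 rose, 1 fell and 5 did not pass (median log2 fold change 0.09). Prcp, a lysosomal carboxypeptidase, rose from 10.5 ± 0.499 to 16.9 ± 1.55 CPM (SD, n = 3; adjusted p = 0.000546 from edgeR). Scpep1, another serine carboxypeptidase, rose by 0.75 on the log2 scale (adjusted p = 0.0138 from edgeR) but not without Sf3b1 +/+ replicate 3 (adjusted p = 0.0571), which left 1 of the 8 genes higher. Dpp7, a dipeptidyl peptidase, fell by 0.54 on the log2 scale (adjusted p = 0.0105 from edgeR). Ctso, a further cathepsin, was at 2.99 ± 0.209 against 3.82 ± 0.532 CPM (SD, n = 3) and passed as lower only with the replicate block (adjusted p = 0.0326 from edgeR) or without Sf3b1 +/+ replicate 1 (adjusted p = 0.0469), so that 2 were then lower. Of the rest, 10 were listed at 0, among them the placental cathepsins Ctsj and Ctsq, Ctsg and Napsa, and Ctsw had 1 read in all.

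Of 13 cathepsin inhibitors, 4 could be tested, of which 2 fell and 0 rose with edgeR (4 and 0 at an unadjusted p under 0.05, 2 and 0 with DESeq2; median log2 fold change -0.61). Over all tested genes 23.1% fell and 21.3% rose with edgeR. Cst3, the secreted cystatin C, fell from 24.5 ± 2.71 to 17.4 ± 0.799 CPM (SD, n = 3; adjusted p = 0.00339 from edgeR), and the intracellular serpin gene Serpinb6a from 8.11 ± 1.3 to 4.78 ± 0.495 CPM (adjusted p = 0.00302 from edgeR). Cst7, a cystatin of immune cells (0.881 against 1.45 CPM, adjusted p = 0.0557), and Cstb, the cytosolic cystatin B (29.6 against 35.4 CPM, adjusted p = 0.0648), did not pass. With the replicate block all 4 were lower (adjusted p = 0.00638 and 0.00426 from edgeR for the latter pair). The shares over all genes hold only for the adjusted p without the block. With the block, 7134 of all tested genes passed in place of 5569. The summed level of the inhibitors was 48.9 to 56.6 CPM in Sf3b1 K700E/+ and 66.2 to 72 CPM in Sf3b1 +/+ libraries. The summed level of the granulocyte and macrophage markers, most of it Spi1, was lower in the same libraries, and its relation to these levels was not tested.

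All 15 genes that sort lysosomal enzymes could be tested, of which 4 rose, 6 fell and 5 did not pass (median log2 fold change -0.14). Over all tested genes 21.3% rose and 23.1% fell. Sort1, the receptor sortilin, fell from 38.1 ± 11.8 to 5.02 ± 0.29 CPM (SD, n = 3; log2 fold change -2.92, adjusted p = 1.63e-05 from edgeR). The adaptor gene Gga2 rose from 357 ± 24 to 649 ± 18.6 CPM (adjusted p = 1.51e-05 from edgeR) and Gga1, of the same family, fell from 107 ± 10.6 to 59.8 ± 3.53 CPM (adjusted p = 6.53e-05 from edgeR). Cln8, a receptor that carries lysosomal enzymes out of the endoplasmic reticulum, rose by 1.23 on the log2 scale (standard error 0.09, adjusted p = 9.28e-06 from edgeR).

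Of the lysosomal membrane proteins, 14 of 17 could be tested, with 3 higher, 5 lower and 6 that did not pass (median log2 fold change -0.15). The shares over all tested genes, for this list and the next, were 21.3% higher and 23.1% lower. Laptm5, which is specific to blood cells, fell from 618 ± 83.8 to 243 ± 7.92 CPM (SD, n = 3; adjusted p = 1.05e-05 from edgeR). The calcium channel gene Mcoln1, the cystine transporter gene Ctns and the amino acid sensor gene Slc38a9 fell, with log2 fold changes of -0.64, -0.59 and -0.58. Of 35 other lysosomal hydrolases 30 could be tested, of which 7 rose, 15 fell and 8 did not pass (median log2 fold change -0.29). Acp5, an acid phosphatase, rose from 66.6 ± 3.46 to 149 ± 10.3 CPM (SD, n = 3; adjusted p = 5.08e-06 from edgeR), and the acid sphingomyelinase gene Smpd1 rose by 0.85 on the log2 scale. The alpha-mannosidase gene Man2b1 fell from 258 ± 38.4 to 110 ± 3.66 CPM (adjusted p = 2.48e-05 from edgeR) and the thioesterase gene Ppt2 from 1.36 ± 0.11 to 0.374 ± 0.122 CPM (adjusted p = 0.000333 from edgeR). Only 4 of the 30 rose without Sf3b1 K700E/+ replicate 1 or 2, or without Sf3b1 +/+ replicate 2 or 3.

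Of 16 subunits and partners of the V-ATPase, the pump that acidifies the lysosome, 3 rose, 3 fell and 10 did not pass (median log2 fold change -0.03). Over all tested genes 21.3% rose and 23.1% fell. Atp6ap1 and Atp6v0a1 rose by 0.42 and 0.44 on the log2 scale (adjusted p = 0.000608 and 0.00186 from edgeR), and Atp6v0d1 fell by 0.38 on the log2 scale. Atp6ap2 rose by 0.23 on the log2 scale (adjusted p = 0.0273 from edgeR) but not without Sf3b1 K700E/+ replicate 1 or 3 or Sf3b1 +/+ replicate 2. With the replicate block 5 of the 16 rose, but over all tested genes 7134 then passed in place of 5569. Only 1 of the 16 fell without Sf3b1 K700E/+ replicate 1 or 2, or without Sf3b1 +/+ replicate 2 or 3. Among the transcription factors that bind CACGTG in lysosomal genes, Tfeb fell from 17.5 ± 0.79 to 9.34 ± 1.92 CPM (SD, n = 3; log2 fold change -0.90, standard error 0.14, adjusted p = 0.000911 from edgeR). Tfe3 was at 114 ± 11.8 against 121 ± 7.42 CPM and did not pass (adjusted p = 0.468 from edgeR), Mitf was listed at 0, and Tfec was below the filter. Of the cathepsin genes with CACGTG in the stretch searched, Ctsl was higher and Ctsa lower without overlap, and Ctsd overlapped.

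**Figure D5:**
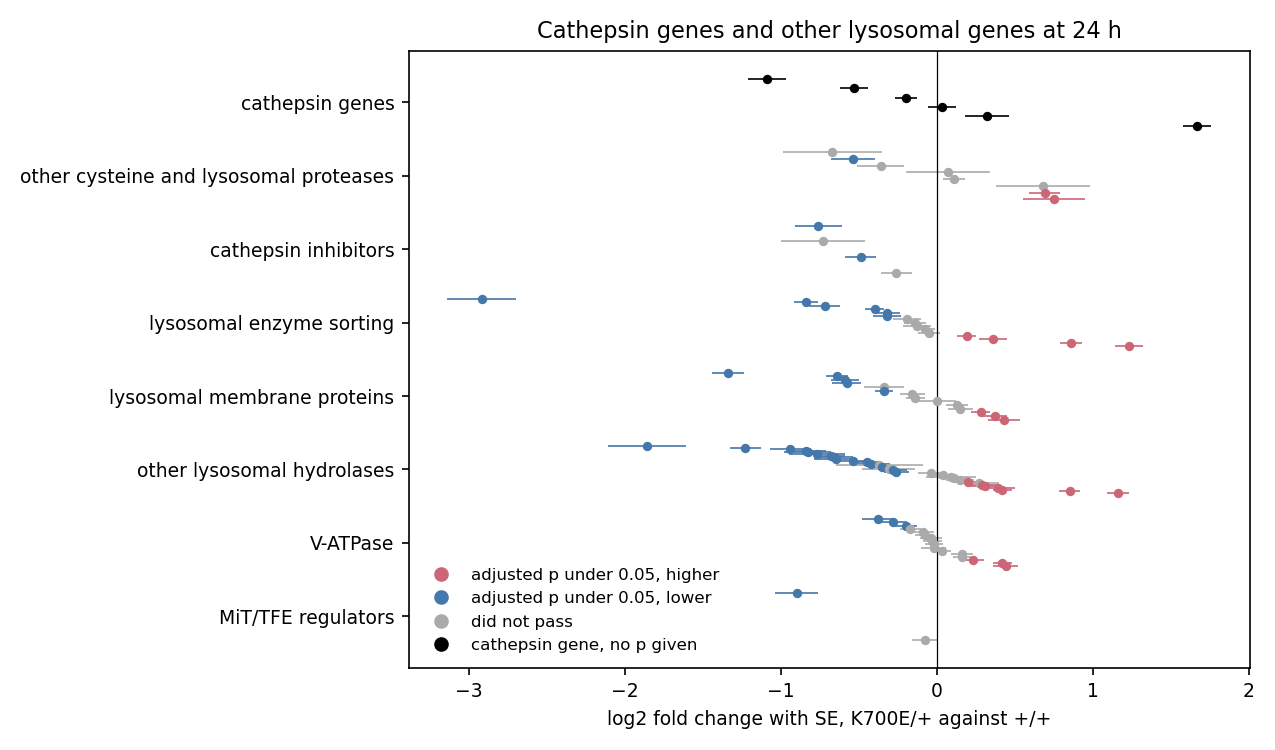
Log2 fold change (x axis) with its standard error for the 6 cathepsin genes with reads in both genotypes (black, no p given) and for the tested genes of the 7 lysosomal lists (1 row per list), red where higher and blue where lower at an adjusted p under 0.05 from edgeR, grey where not. The cathepsin genes run from -1.09 (Ctse) to 1.67 (Ctsl), and the sorting genes from -2.92 (Sort1) to 1.23 (Cln8). Ctsz is not drawn, since its fold is a bound.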

How the data were processed

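Poly(A) RNA of 3 Sf3b1 K700E/+ and 3 Sf3b1 +/+ libraries of G1E-ER4 cells, all at 24 h of estradiol, was examined. The authors aligned reads with STAR 2.7.9 on GRCm39, per the labels, and deposited raw counts for 56748 genes. The study's reporting summary names STAR for counting too, and the use of strand and the annotation release are not given in the sources used here. They also deposited, for 19323 events assembled with KisSplice, the read numbers of both paths and a PSI, packed per library or read file. DESeq2 1.30.1 is named by the labels for comparisons that were not used here. The other 6 of 12 samples, taken before estradiol, were not analysed here, so the comparison planned for them was not run.

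Counts were fitted in R 4.3.3 with edgeR 4.0.16 (filterByExpr, TMM, quasi-likelihood F test, Benjamini-Hochberg adjustment) over 12547 genes. The steps were tested on simulated data. PSI was recomputed from reads divided by path length, for events whose paths held 10 or more reads in each library. Transcript lengths are those of the coding transcript with the best support level, then APPRIS rank, then length, in GENCODE M21, of which no coordinate was used, and promoters and gene order are from RefSeq GRCm38.p6. All 9 genes were found by symbol in the count table. The cathepsin genes and the gene lists were chosen with earlier results of these data known. Named otherwise are the 3 nearest genes on either side of Ctsz, the 5 genes most like it, up to 4 tested genes of each lysosomal list with the lowest adjusted p, and up to 4 genes of each marker list with the highest CPM and markers at 0, of which some are not reported here. Glb1 and Neu1, as partners of Ctsa, were added after their values were seen, as were Gata1, Alas2, Gp9 and the protease and regulator genes near 0. The alternatives changed the normalization, the filter, the test (DESeq2 1.42.0), the PSI and the libraries.

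Same-numbered libraries deviated together from the mean of their genotype (Pearson correlation 0.63, 0.48 and 0.48 for replicates 1, 2 and 3, across 8771 genes of mean 5 CPM or more), so the numbers, which the labels give, were taken to pair the libraries. The main fit did not use this pairing, and p-values rest on it only where the replicate block is named. Replicate 1 stood apart in both genotypes: its pairs with another number gave -0.51 to -0.42. Unlike numbers 2 and 3 also deviated together (0.25 and 0.2), so the pairing within replicates 2 and 3 is less sure than that within replicate 1. Pairs of libraries within a genotype differed by a chi-square per degree of freedom of 7.42 to 32.6, so none is a copy of another. Floors and bounds cover counting error only.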

Additional observations from a re-analysis of the deposited data

How the results depend on the processing

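Of the comparisons with the genes and lists as a whole, 142 values under an alternative moved by less than 1 SD between replicates (counts: stayed within 1.5 times), 9 moved by more and 2 turned. For counts of single lists, 239 stayed within 1.5 times and 25 did not. With the replicate number as a block, as the pairing of the libraries allows, 4 marker genes were higher where 2 were without it, and leaving out each library gave 1 to 4. Among all genes, 7134 had an adjusted p under 0.05 with the block against 5569 without it, and 1318 against 1294 met both thresholds. The block kept 3 cathepsin genes at the thresholds. The marker genes called lower numbered 13, against 22 with no filter on low counts and 6 with the study's filter (fewer than 3 of the 6 libraries under 20 normalized reads), under which genes at 0 in 1 genotype, Ctsz among them, cannot be tested. That filter tested 11028 genes and left 776 at both thresholds, against 1294 of 12547 in the main fit. These counts were not set against the paper's own. The log2 fold change of Ctsb turned to -0.05 without Sf3b1 K700E/+ replicate 3 and to -0.02 without Sf3b1 +/+ replicate 1, and lay between -0.05 and 0.12 without any 1 library. The log2 bound of Ctsz lay between 9.13 and 9.77, lower with fewer Sf3b1 +/+ libraries because the floor then stands over fewer reads. Between 2 and 3 cathepsin genes met the thresholds without any 1 library. The PSI differences of the Ctsa introns lay between -0.0884 and -0.0368 and between 0.000388 and 0.0582. Both introns had over 20 reads in every library, so the coverage minimum of 5 or 20 reads could not change them. With 3 libraries of 1 clone per genotype, the spread between clones is unknown.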
